A study of Mus musculus with 8 samples.

Results

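Potassium channel genes were examined in mouse heart RNA sequencing of TAZG197V against wild-type (WT) animals. The members were all genes whose mouse symbol begins with Kcn, without antisense and overlap-transcript names, that had a mean raw count of at least 20 over the 8 libraries. This rule kept 48 of 94 Kcn genes among 55471 gene rows, and it used the mean over both genotypes but no difference between them. For 2 members, Kcnj4 and Kcnq3, the mean raw count was under 20 in WT (9.75 and 19.5) and the minimum was reached through TAZG197V (128 and 64.5). The members just inside the minimum were Kcnk13, with a mean raw count of 23.1, Kcnd1 with 25.0 and Kcnk5 with 26.1. Those just outside were Kcnn4, with a mean raw count of 19.1, Kcnk9 with 18.8 and Kcnc4 with 18.1. Of the 46 Kcn genes below the minimum, 4 had no count in any library.

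The samples were small pieces of heart from 4 WT and 4 TAZG197V mice, sequenced as total RNA with no treatment. TAZG197V mice carry a knock-in missense change, glycine to valine, in Tafazzin (gene Taz, on chromosome X), the mitochondrial enzyme that remodels cardiolipin and is mutated in Barth syndrome. The change was made by CRISPR/Cas9 in C57BL/6N zygotes and edited mice were crossed to C57BL6/J, so it is present in all cells of the animal rather than in heart muscle alone. Per the study's text the TAZG197V mice were hemizygous males and the mice of both genotypes were 14 weeks old. The change alters the protein, so that the level of Taz RNA does not test the genotype.

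Potassium channels let potassium leave the cell and so set the resting potential and end the action potential. Inward rectifiers (Kcnj) hold the resting potential, voltage-gated Kv channels (Kcna, Kcnb, Kcnc, Kcnd, Kcnh, Kcnq) open on depolarisation and repolarise the membrane, and two-pore-domain channels (Kcnk) carry background current. Calcium- or sodium-activated channels (Kcnma, Kcnn, Kcnt) respond to ions inside the cell, electrically silent Kv subunits (Kcng, Kcnv) act only in combination with other Kv subunits, and auxiliary subunits (Kcne, Kcnip, Kcnab, Kcnmb) alter gating and trafficking.

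Sequence upstream of the start site is shown for the 4 called inward rectifier genes, since this group held close paralogs that were called in opposite directions. Each line gives the 250 bases before the RefSeq start on GRCm38.p6 (the assembly of mm10), 5′ to 3′ on the gene's strand. The windows are chr11:111065914-111066163 (plus strand) for Kcnj2, chr11:61065554-61065803 (plus strand) for Kcnj12, chr15:79505242-79505491 (minus strand) for Kcnj4 and chr2:55435720-55435969 (plus strand) for Kcnj3. The RefSeq start of Kcnj12 lies inside the longer GENCODE gene, whose farther upstream starts are not covered. Capitals mark a match on either strand to the GC box (GGGCGG), the only searched motif found in them.
Kcnj2: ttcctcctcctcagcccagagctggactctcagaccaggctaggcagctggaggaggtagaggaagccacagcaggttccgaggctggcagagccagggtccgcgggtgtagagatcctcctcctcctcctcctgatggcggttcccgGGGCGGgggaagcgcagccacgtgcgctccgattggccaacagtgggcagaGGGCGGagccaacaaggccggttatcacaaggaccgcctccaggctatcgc
Kcnj12: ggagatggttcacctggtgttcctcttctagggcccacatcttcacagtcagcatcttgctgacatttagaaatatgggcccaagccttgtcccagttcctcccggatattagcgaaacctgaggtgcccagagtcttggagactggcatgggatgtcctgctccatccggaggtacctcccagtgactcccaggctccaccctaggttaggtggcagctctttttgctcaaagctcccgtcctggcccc
Kcnj4: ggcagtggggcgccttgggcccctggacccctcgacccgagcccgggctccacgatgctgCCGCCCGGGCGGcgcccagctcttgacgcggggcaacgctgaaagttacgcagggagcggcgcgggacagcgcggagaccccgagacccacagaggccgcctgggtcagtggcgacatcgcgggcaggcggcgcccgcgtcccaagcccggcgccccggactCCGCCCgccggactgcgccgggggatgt
Kcnj3: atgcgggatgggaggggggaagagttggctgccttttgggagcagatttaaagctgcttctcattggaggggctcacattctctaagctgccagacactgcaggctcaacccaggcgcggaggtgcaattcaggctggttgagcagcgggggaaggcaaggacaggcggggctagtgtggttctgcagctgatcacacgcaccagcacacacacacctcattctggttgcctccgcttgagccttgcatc

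The Kcnj2 window held 2 GC boxes, the Kcnj4 window held 3, of which 2 adjoin each other, and the windows of Kcnj12 and Kcnj3 held 0. Windows were found for 33 members, and 38.3% of their 47 windows held a GC box against 32.7% of all 32851 windows. A GATA element (AGATAA) was in 2.13% of the members' windows and 9.99% of all windows, and a C/EBP-ATF response element (TGATGNAAN) in 2.13% and 3.44%. A MEF2 element (CTA and TAG with 4 bases between) and a cyclic AMP response element (TGACGTCA) were in 0 of the members' windows and in 3.2% and 1.55% of all windows. These matches describe letters only. The GC box was thus found both before a gene that was higher in TAZG197V (Kcnj4) and before one that was lower (Kcnj2).

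Total counts were 23055689 to 36301031 per library. Taz RNA was present in all 8 libraries, at 58.7 to 63.8 CPM (TMM-scaled counts relative to library size) in WT and 44.3 to 50.4 in the TAZG197V libraries. Both libraries numbered 4 stood apart: the summed level of 5 neuron markers reached 60.5 CPM in WT 4 and 165 CPM in TAZG197V 4 against 6.91 to 10.2 CPM in the other 6, and the summed level of 4 glia markers was 53.2 and 95.2 CPM against 8.55 to 15.3. WT 4 also had the highest red cell markers (44100 CPM in sum against 182 to 854 in the other 7). The labelled tissue was checked with 5 cardiomyocyte markers, which summed to 47000 to 51700 CPM in WT and 38400 to 42900 CPM in TAZG197V. All 5 were detected, 3 were called lower and 0 higher, and their median log2 difference (TAZG197V minus WT) was -0.316. Of 4 fibroblast markers 3 were called lower and 0 higher (median log2 fold change -0.534), and of 4 endothelial markers 2 were called lower and 0 higher (median -0.325). Over all genes tested 15.1% were called lower and 18.5% higher, which is the background for these and all later marker lists. The fibroblast sum was 699 to 1120 CPM in WT and 464 to 631 CPM in TAZG197V, and the endothelial sum 614 to 877 and 495 to 636 CPM. Fewer cells of a type in the piece and less RNA per cell cannot be told apart in bulk samples, and the part of any of these markers in the channel levels was not tested.

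Potassium channel genes were called lower in TAZG197V hearts more often than higher. A call needed an adjusted p under 0.05 (edgeR quasi-likelihood test, Benjamini-Hochberg over 15084 genes), a log2 fold change beyond 0.202 in either direction and a mean scaled count of at least 50. Of the 48 members, 44 could be tested, 18 were called, 14 of them lower and 4 higher, which is 37.5% of members called, 29.2% lower and 8.33% higher. Of the tested members 40.9% were called, 31.8% lower and 9.09% higher, and over all genes tested 33.5% were called, 15.1% lower and 18.5% higher. The difference between these shares was not tested. The median log2 fold change was -0.26 over the tested members and -0.0132 over all genes tested. For 10 members each TAZG197V library was under each WT library, and for 2 members each was over it, or 20.8% and 4.17% of all 48 members. The background was 13.9% and 19.3% of tested genes, whereas the 48 members include 4 that were not tested. Of the 37 members with the mean count a call needs, 48.6% were called, 37.8% lower and 10.8% higher, against 40.9%, 18.4% and 22.5% of all tested genes with that count. The mean scaled count of at least 50 that a call needs was reached through 1 genotype in 5 of the 18 called members, so the counts of calls are given as a description. These were 3 of the 4 called higher (Kcnj4, Kcnq5 and Kcnc1, under 50 in WT) and 2 of the 14 called lower (Kcna1 and Kcnmb1, under 50 in TAZG197V). The 26 tested members that were not called had log2 fold changes between -0.79 and 0.33, and 0 of them had an adjusted p under 0.05. The remaining 4 members, among them Kcnq3, Kcnma1 and Kcnj10, did not pass the filter on low counts.

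**Figure D1:**
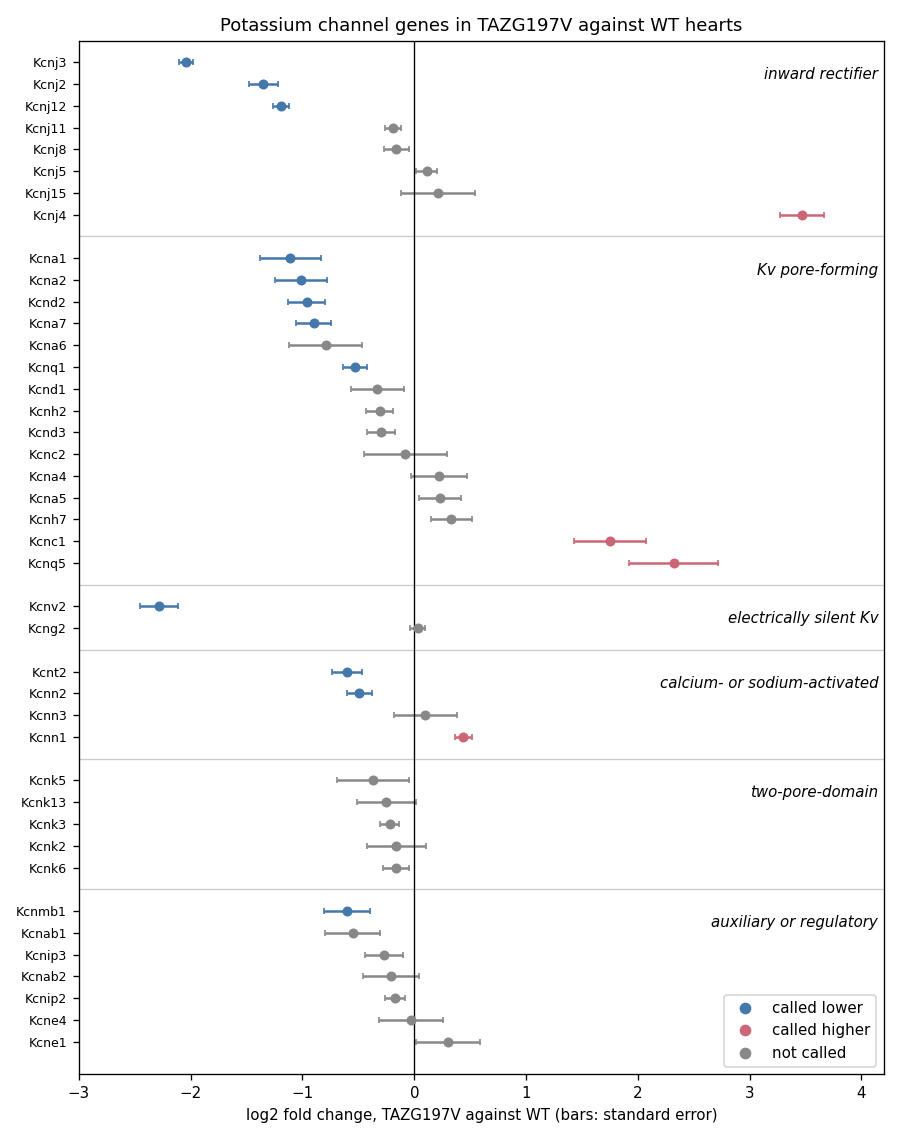
Log2 fold change of tested potassium channel genes, TAZG197V against WT (x axis, with standard error bars), ordered within functional groups on the y axis. Kcnj4 lies farthest to the right at 3.47 and Kcnv2 farthest to the left at -2.28, and the 5 two-pore-domain genes lie between -0.37 and -0.16 with no call.

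Levels between genes were compared as CPM per kb of exon. In WT hearts the highest members on this scale were the two-pore-domain gene Kcnk3 at 71.0, the Kv4 partner Kcnip2 at 49.9, the KATP pore Kcnj11 at 44.8 and the silent subunit Kcng2 at 37.1. They were followed by the GIRK genes Kcnj5 at 22.4 and Kcnj3 at 20.8 CPM per kb. Of these 6 genes only Kcnj3 was called. In TAZG197V hearts the level of Kcnj3 was 5.05 CPM per kb, below Kcnj8 at 14.2, Kcnh2 at 12.7, Kcnq1 at 6.66 and Kcnj2 at 5.82, each of which it exceeded in WT.

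**Figure D2:**
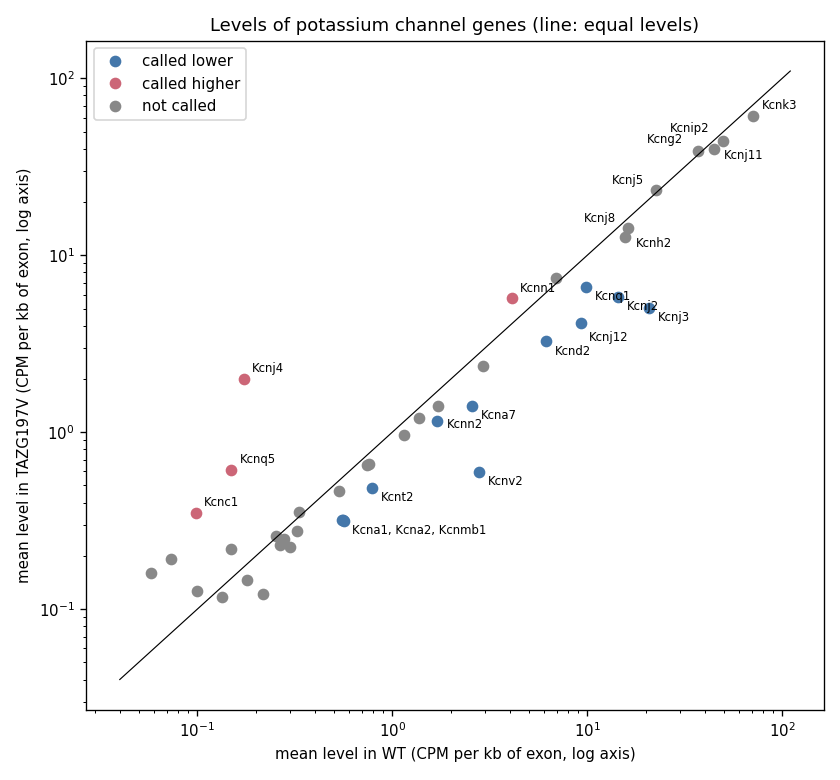
Mean level of members in WT (x axis) and TAZG197V (y axis), in CPM per kb of exon on log axes, n = 4 libraries each. Kcnj3, Kcnj2, Kcnj12 and Kcnv2 sit below the line of equal levels, Kcnj4, Kcnq5 and Kcnc1 sit above it, and the most abundant genes from Kcnk3 to Kcnj5 lie close to it.

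Among the 9 inward rectifier genes, 3 were called lower (Kcnj3, Kcnj2, Kcnj12) and 1 higher (Kcnj4), and the median log2 fold change of the 8 tested was -0.18. These are 37.5% and 12.5% of the 8, beside 15.1% called lower and 18.5% higher over all genes tested. Kcnj2 and Kcnj12 encode Kir2.1 and Kir2.2, the pores of the current IK1 that holds the resting potential of ventricular muscle. Kcnj2 (ENSMUSG00000041695, chromosome 11, 111066164 to 111076821, plus strand, mm10) was at 60.8, 51.9, 79.6 and 121 CPM in the WT libraries and at 36.1, 30.7, 29.7 and 30.3 CPM in the TAZG197V libraries. The groups did not overlap, and WT 4 was the highest of all. Kcnj2 fell by 1.35 on the log2 scale (SE 0.127, adjusted p = 0.000141, edgeR), and its fitted value was -0.96 without both number 4 libraries (adjusted p = 0.000193, edgeR).

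Kcnj12 (ENSMUSG00000042529, chromosome 11, 61022564 to 61071131, plus strand) was at 25.1, 20.3, 28 and 28.2 CPM in WT and at 10.6, 12.0, 11.4 and 11.7 CPM in TAZG197V. Every TAZG197V library was below every WT library, and the spread within TAZG197V was small (11.4 ± 0.609 CPM, SD, n = 4). Kcnj12 fell by 1.19 (log2, SE 0.0703, adjusted p = 1.38e-05, edgeR). No difference in the ratio of both genes was detected: the mean log2 ratio of Kcnj12 to Kcnj2 counts was -1.56 ± 0.376 in WT and -1.47 ± 0.2 in TAZG197V (SD, n = 4). The log2 ratio of their counts differed by 0.09 between genotypes (exact two-sided permutation test, p = 0.714, adjusted over 6 ratios 0.857, n = 4 against 4).

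Kcnj4 (ENSMUSG00000044216, chromosome 15, 79483714 to 79505241, minus strand) encodes Kir2.3, a further member of the same subfamily. It had 9, 6, 9 and 15 raw counts in WT and 114, 114, 96 and 189 in TAZG197V, which is 0.304, 0.165, 0.35 and 0.67 CPM against 4.14, 3.08, 3.1 and 6.93 CPM. It was low in every WT library and higher in every TAZG197V library, and it met both count minimums only through TAZG197V (mean raw count 9.75 in WT and 128 in TAZG197V), with the highest value of each genotype in the number 4 library. The fitted change was an 11.0-fold rise (log2 3.47, SE 0.197, adjusted p = 1.18e-05, edgeR), and the log2 value was 3.70 without both number 4 libraries. No exon base of Kcnj2, Kcnj12 or Kcnj4 lay in another gene, and at most 0.204% of their 50-base windows occurred in another gene's exons.

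Per kb of exon, the 3 Kir2 genes together were at 20.5, 17.0, 25.0 and 32.8 CPM per kb in WT and at 12.4, 11.4, 11.0 and 13.0 CPM per kb in TAZG197V. The sum was thus lower in every TAZG197V library (23.8 ± 6.84 in WT and 12.0 ± 0.908 in TAZG197V, SD, n = 4). Kcnj4 made up 0.451% to 0.948% of the sum in WT and 12.5% to 24.7% in TAZG197V. Kcnj2 was the largest share in every library, at 54.6% to 67.8% in WT and 42.7% to 53.5% in TAZG197V.

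**Figure D3:**
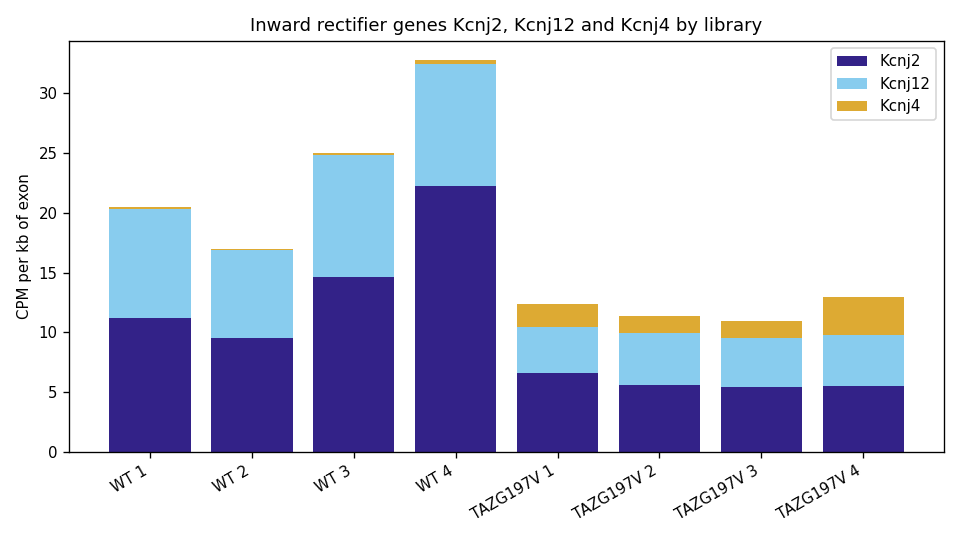
Summed level of the inward rectifier genes Kcnj2, Kcnj12 and Kcnj4 in each library (y axis, CPM per kb of exon), stacked by gene. The 4 TAZG197V bars reach 11.0 to 13.0 and the 4 WT bars 17.0 to 32.8, and the Kcnj4 segment is 0.451% to 0.948% of the WT bars and 12.5% to 24.7% of the TAZG197V bars.

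Kcnj3 and Kcnj5 encode GIRK1 and GIRK4, which form the acetylcholine-activated channel that slows the heart and is most abundant in atrium and nodes. Kcnj3 (ENSMUSG00000026824, chromosome 2, 55435970 to 55598145, plus strand) was at 102, 114, 94.3 and 124 CPM in WT and at 26.1, 24.6, 23.0 and 31.6 CPM in TAZG197V. The groups were far apart, with no TAZG197V library above 31.6 CPM and no WT library below 94.3. Kcnj3 fell by 2.04 (log2, SE 0.0617, adjusted p = 4.33e-07, edgeR). Of its exon bases 31.1% were shared with Gm26794. The strand setting of the counting is not given in the sources used here, so the reads of both genes there cannot be told apart.

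Its partner Kcnj5 (ENSMUSG00000032034) was at 116, 127, 87.0 and 89.8 CPM in WT and at 109, 122, 113 and 92.4 CPM in TAZG197V. These ranges overlapped and Kcnj5 was not called (log2 0.11, SE 0.0911, adjusted p = 0.352, edgeR). The ratio of Kcnj3 to Kcnj5 counts was 0.885, 0.899, 1.08 and 1.38 in WT and 0.24, 0.201, 0.203 and 0.342 in TAZG197V. The mean log2 ratio differed by -2.12 (TAZG197V minus WT), with p = 0.0286 in an exact two-sided permutation test, the smallest that 4 against 4 libraries allow, and 0.171 after adjustment over 6 ratios. The value was between -2.29 and -1.99 when any 1 library was left out. With this smallest p, 1 ratio alone could not reach an adjusted p under 0.05 over 6 ratios.

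Atrial markers varied between pieces of heart: the summed level of 5 of them was 118, 1060, 70.4 and 3.79 CPM in WT and 42.3, 131, 30.5 and 29 CPM in TAZG197V. Of the 5, 4 were tested, 2 were called lower and 0 higher. Kcnj3 was at 102, 114, 94.3 and 124 CPM in the same WT libraries, and the part of atrial tissue in its difference was not tested. Among genes that act upstream of this channel, Chrm2, the muscarinic receptor that opens it, was at 156, 163, 144 and 194 CPM in WT and at 90.7, 95.0, 77.4 and 89.2 CPM in TAZG197V and was called lower (log2 -0.90, SE 0.095, adjusted p = 0.000236, edgeR). The adenosine receptor Adora1 (-0.07) and the G protein and RGS genes Gnai2 (-0.16), Gnao1 (0.13), Gnb5 (0.10), Rgs4 (-0.21) and Rgs6 (0.06) were not called, with the log2 fold changes given.

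The KATP channel, which opens when ATP is low, is built of Kcnj11 (Kir6.2) or Kcnj8 (Kir6.1) with a sulfonylurea receptor. Kcnj11 was at 180, 151, 169 and 159 CPM in WT and at 158, 144, 141 and 141 CPM in TAZG197V. Kcnj8, the form of vascular muscle and pericytes, was at 49.7, 40.1, 45.5 and 29 CPM in WT and at 34.0, 40.4, 39.9 and 30 CPM in TAZG197V. Neither was called: the log2 fold change was -0.19 for Kcnj11 (SE 0.0685, adjusted p = 0.0633, edgeR) and -0.16 for Kcnj8 (SE 0.109, adjusted p = 0.264, edgeR). The log2 ratio of Kcnj8 to Kcnj11 was -2.03 in both genotypes on average (SD 0.286 and 0.23, n = 4, exact permutation p = 1).

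Of the sulfonylurea receptors, Abcc8 (SUR1) was at 48.9, 46.0, 39.9 and 41.6 CPM in WT and at 65.3, 60.7, 57.2 and 57.7 CPM in TAZG197V. It was higher in every TAZG197V library (log2 0.47, SE 0.0781, adjusted p = 0.00227, edgeR). Abcc9 (SUR2) was more abundant, at 53.2 CPM per kb against 5.45 for Abcc8 in WT, and was not called (log2 -0.04, adjusted p = 0.813, edgeR). The pericyte markers were at 668 to 890 CPM in sum in WT and 561 to 641 in TAZG197V, with 3 of 4 called lower and 0 higher. Their relation to the level of Kcnj8 was not tested.

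Kcnj15, a further inward rectifier, was at 0.759 to 3.49 CPM in WT and 1.16 to 1.83 CPM in TAZG197V and was not called. Its fitted log2 value was 0.21, while the group means were 1.76 CPM in WT and 1.56 CPM in TAZG197V.

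**Figure D4:**
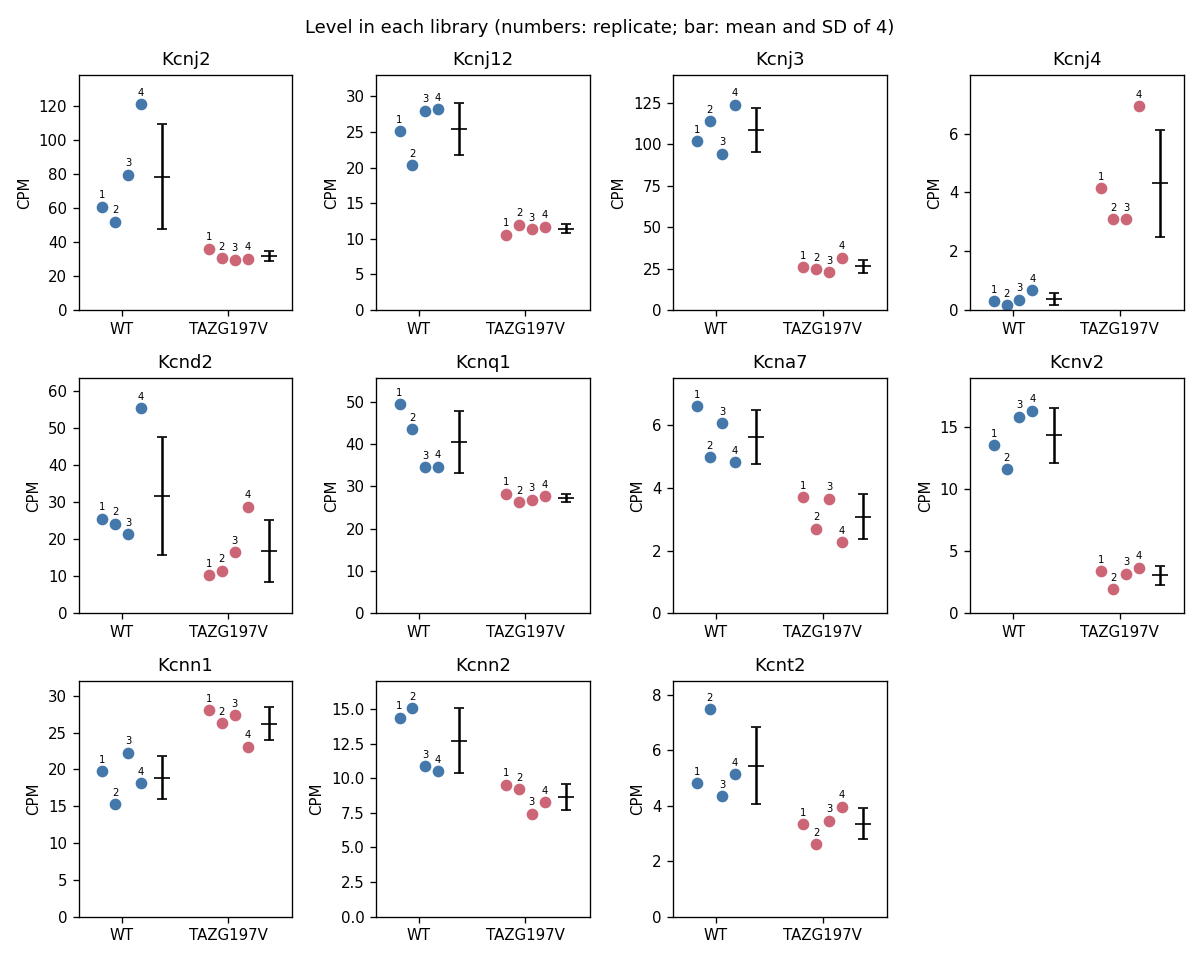
Level of 11 called potassium channel genes in each library (y axes, CPM from 0), with WT and TAZG197V side by side, replicate numbers beside the points and the mean with SD of 4 libraries beside each group. Kcnd2 is the gene of the 11 whose groups overlap, through TAZG197V 4 at 28.8 CPM.

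Of the 20 Kv pore-forming genes, 18 were tested, 7 were called lower and 2 higher, and their median log2 fold change was -0.43. These are 38.9% and 11.1% of those tested, beside 15.1% called lower and 18.5% higher over all genes tested. Kcnd2 and Kcnd3 encode Kv4.2 and Kv4.3, which carry the fast transient outward current that opens repolarisation. Kcnd2 (ENSMUSG00000060882, chromosome 6, 21215503 to 21729805, plus strand) was at 25.6, 24.2, 21.4 and 55.4 CPM in WT and at 10.3, 11.5, 16.6 and 28.8 CPM in TAZG197V. The number 4 library was the highest of each genotype, and the other 6 libraries did not overlap between genotypes. Kcnd2 fell by 0.96 (log2, SE 0.166, adjusted p = 0.0027, edgeR), the value was -0.89 without both number 4 libraries (adjusted p = 0.00402, edgeR), and the call was lost without surrogate variables (log2 -0.91, adjusted p = 0.113, edgeR).

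Kcnd3 was at 30.3, 27.5, 24.6 and 29.4 CPM in WT and at 27.1, 18.6, 18.9 and 26.7 CPM in TAZG197V. It overlapped between genotypes and was not called (log2 -0.30, SE 0.125, adjusted p = 0.0958, edgeR), while its adjusted p was 0.0217 without TAZG197V 1 and 0.0292 without a low-count filter (edgeR). Kcnip2 (KChIP2), the calcium-binding partner that brings Kv4 channels to the surface, was at 195, 162, 181 and 156 CPM in WT and at 147, 144, 165 and 160 CPM in TAZG197V and was not called (log2 -0.17, SE 0.0885, adjusted p = 0.165, edgeR). The ratio of Kcnd3 to Kcnd2 differed by 0.61 on the log2 scale (exact two-sided permutation test, p = 0.257, adjusted 0.514) and that of Kcnip2 to the sum of both Kv4 genes by 0.42 (p = 0.2, adjusted 0.514, same exact test). Without WT 4 these values were 0.33 and 0.19, and without TAZG197V 1 the first was 0.33. No difference in either ratio was detected, and with 4 libraries a genotype 1 ratio alone could not reach an adjusted p under 0.05. Irx3 (-0.20) and Irx5 (-0.16), transcription factors that regulate Kcnd2, were not called, and the Kv4 partners Dpp6 and Dpp10 did not pass the filter on low counts.

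Kcna5, which encodes Kv1.5 of the ultrarapid delayed rectifier current, was at 28, 23.6, 14.6 and 12.5 CPM in WT and at 20.1, 21.9, 22.4 and 20.6 CPM in TAZG197V. The TAZG197V libraries lay within the WT range (SD 7.36 CPM in WT and 1.08 CPM in TAZG197V). It was not called (log2 0.23, SE 0.186, adjusted p = 0.361, edgeR). Kcna7, a Kv1 gene of heart and skeletal muscle, was at 6.6, 4.97, 6.06 and 4.82 CPM in WT and at 3.71, 2.7, 3.65 and 2.27 CPM in TAZG197V. The ranges did not overlap and Kcna7 fell by 0.90 (log2, SE 0.157, adjusted p = 0.0028, edgeR).

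Kcnq1 and Kcnh2 encode KvLQT1 and ERG1, the pores of the slow and rapid delayed rectifier currents that are mutated in long QT syndrome. Kcnq1 (ENSMUSG00000009545, chromosome 7, 143106362 to 143427042, plus strand) was at 49.4, 43.6, 34.5 and 34.7 CPM in WT and at 28.3, 26.2, 26.9 and 27.7 CPM in TAZG197V. The groups did not overlap and Kcnq1 fell by 0.53 (log2, SE 0.107, adjusted p = 0.00537, edgeR). Kcnh2 was at 76.8, 73.9, 65.9 and 88.4 CPM in WT and at 58.5, 71.1, 48.7 and 67.6 CPM in TAZG197V, with an overlap. Kcnh2 was not called (log2 -0.31, SE 0.119, adjusted p = 0.0679, edgeR), while its adjusted p was 0.023 with DESeq2 and 0.0133 without TAZG197V 2 (edgeR).

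Kcne1, the auxiliary subunit that slows KvLQT1, was at 6.49, 11.2, 2.72 and 1.61 CPM in WT and at 4.03, 3.4, 6.29 and 4.44 CPM in TAZG197V. WT libraries spanned a wider range than TAZG197V libraries, and Kcne1 was not called (log2 0.30, SE 0.285, adjusted p = 0.436, edgeR). The fitted value was above 0 although the mean was 5.5 ± 4.33 CPM in WT against 4.54 ± 1.24 CPM in TAZG197V (SD, n = 4), and its sign turned in 8 of 16 alternatives. The log2 ratio of Kcne1 to Kcnq1 differed by 0.62 (exact two-sided permutation test, p = 0.343, adjusted 0.514), and by 0.23 without WT 4 and 1.05 without WT 2. Akap9, which anchors signalling proteins to KvLQT1, was not called either (log2 0.08).

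A further 4 called Kv genes, Kcna1, Kcna2, Kcnq5 and Kcnc1, are better known from neurons, and in TAZG197V hearts each was highest in the number 4 library. Kcna1 and Kcna2 encode the axonal channels Kv1.1 and Kv1.2. Kcna1 was at 2.71, 3.44, 1.44 and 3.17 CPM in WT and at 0.472, 0.702, 0.871 and 4.0 CPM in TAZG197V. Kcna2 was at 4.97, 7.75, 4.35 and 9.38 CPM in WT and at 1.42, 1.78, 2.87 and 9.02 CPM in TAZG197V. For both genes 3 TAZG197V libraries lay below every WT library, while TAZG197V 4 lay within or above the WT range. The log2 fold change was -1.11 for Kcna1 (SE 0.272, adjusted p = 0.0132, edgeR) and -1.01 for Kcna2 (SE 0.232, adjusted p = 0.00988, edgeR), and without both number 4 libraries it was -1.83 and -1.46 (adjusted p = 0.00125 and 0.00283, edgeR). The mean count of Kcna1 was then too low for a call. In the fit without surrogate variables the log2 value was -0.84 for Kcna1 (adjusted p = 0.349, edgeR) and -0.81 for Kcna2 (adjusted p = 0.305, edgeR). Of 4 glia markers 3 were tested, of which 2 were called lower and 1, the glutamate transporter gene Slc1a2, higher (log2 0.68). The myelin gene Mbp, one of those called lower, was at 3.15 to 10.6 CPM in WT and 2.05 to 3.19 CPM in TAZG197V. The part of these markers in the results was not tested.

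Kcnq5 and Kcnc1 encode the channels Kv7.5 and Kv3.1 and were called higher. Kcnq5 was at 0.169, 0.33, 0.194 and 3.88 CPM in WT and at 3.02, 2.27, 2.16 and 11.4 CPM in TAZG197V. WT 4 overlapped the TAZG197V range, whereas the other 3 WT libraries were at 0.33 CPM or less. The fitted rise was 5.0-fold (log2 2.32, SE 0.396, adjusted p = 0.00252, edgeR), and the log2 value was 3.43 without both number 4 libraries, with an adjusted p of 6.13e-05 (edgeR) and a mean count below the minimum for a call. The log2 value of Kcnq5 was 2.08 without surrogate variables (adjusted p = 0.168, edgeR) and 2.44 with lane as covariate (adjusted p = 0.0694, edgeR). Kcnc1 was at 0.575, 0.605, 0.388 and 2.14 CPM in WT and at 2.14, 1.19, 2.87 and 7.0 CPM in TAZG197V. WT 4 again overlapped the TAZG197V range. Kcnc1 had a log2 fold change of 1.75 (SE 0.32, adjusted p = 0.00353, edgeR) and of 1.96 without both number 4 libraries (adjusted p = 0.00468, edgeR), where its mean count was also below the minimum. Without surrogate variables its log2 value was 1.85 (adjusted p = 0.0674, edgeR).

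Members that could not be tested were high in number 4 libraries. Kcnq3, which encodes a subunit of the neuronal M-current, was at 3.21 CPM in WT 4 and 9.17 CPM in TAZG197V 4 and at 0.0363 to 0.108 CPM in the other 6 libraries. Kcnma1, the large-conductance calcium-activated channel, was at 3.3 CPM in WT 4 and 12.6 CPM in TAZG197V 4 against 0.0968 to 1.24 CPM. The glial inward rectifier Kcnj10 was at 2.1 and 4.11 CPM against 0.135 to 0.507 CPM. For these genes the spread within a genotype was set by 1 library, and no genotype comparison was made. The source of the neuron and glia transcripts was not tested.

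**Figure D5:**
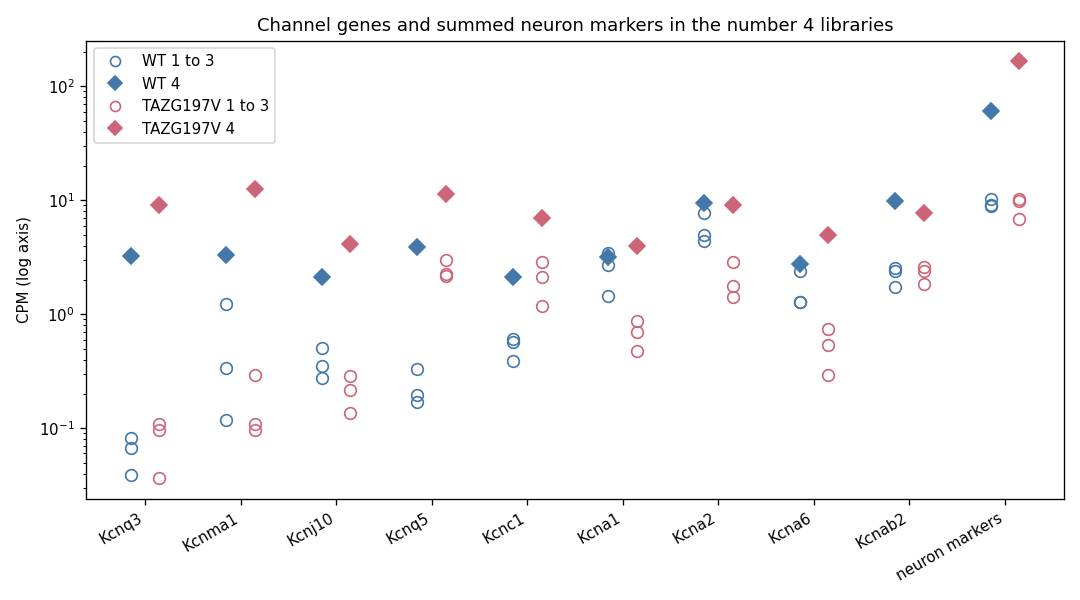
Level of 9 potassium channel genes and of the summed neuron markers in each library (y axis, CPM, log axis), with filled diamonds for both number 4 libraries and open circles for the other 6. Kcnq3 and Kcnma1 reach 3.21 to 12.6 CPM in the number 4 libraries, while the open circles of Kcnq5 and Kcnc1 separate by genotype.

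Further Kv members were not called. Kcna6 was at 1.29, 2.39, 1.28 and 2.77 CPM in WT and at 0.291, 0.54, 0.742 and 4.99 CPM in TAZG197V (log2 -0.79, adjusted p = 0.0909, edgeR), the lowest value among members not called. Gm26673 shares 39.6% of the exon bases of Kcna6. Kcnd1 had a log2 fold change of -0.33, Kcnc2 of -0.08, Kcna4 of 0.22 and Kcnh7 of 0.33.

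Both electrically silent Kv members were tested. Kcnv2 (ENSMUSG00000047298, chromosome 19, 27322588 to 27337179, plus strand) encodes Kv8.2, which joins other Kv subunits and changes their gating. It was at 13.5, 11.6, 15.8 and 16.3 CPM in WT and at 3.38, 1.94, 3.19 and 3.67 CPM in TAZG197V. No library overlapped, and Kcnv2 had the largest fall of all 44 tested members, by 2.28 (log2, SE 0.17, adjusted p = 4.58e-05, edgeR). Kcng2 (Kv6.2), which also joins other Kv subunits, was at 121, 97.9, 119 and 107 CPM in WT and at 120, 125, 111 and 104 CPM in TAZG197V. It was not called (log2 0.03, SE 0.0643, adjusted p = 0.723, edgeR).

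Of the 5 calcium- or sodium-activated genes, 4 were tested, 2 were called lower and 1 higher. These are 50.0% and 25.0% of only 4 genes, beside 15.1% and 18.5% over all genes tested. Kcnn1 and Kcnn2 encode the small-conductance channels SK1 and SK2. Kcnn1 was at 19.8, 15.3, 22.3 and 18.1 CPM in WT and at 28.1, 26.3, 27.4 and 23.1 CPM in TAZG197V, with all TAZG197V libraries above the WT range. It rose 1.35-fold (log2 0.44, SE 0.0747, adjusted p = 0.0025, edgeR). Kcnn2 was at 14.4, 15.1, 10.9 and 10.5 CPM in WT and at 9.55, 9.2, 7.45 and 8.29 CPM in TAZG197V, with all TAZG197V libraries below the WT range. It fell by 0.49 (log2, SE 0.115, adjusted p = 0.0107, edgeR), and without WT 1 its adjusted p was 0.0612 (edgeR). The SK genes therefore passed the test in opposite directions, and Kcnn3 (SK3) was not called (log2 0.10). Kcnt2, a sodium-activated channel, was at 4.8, 7.47, 4.35 and 5.13 CPM in WT and at 3.34, 2.62, 3.45 and 3.96 CPM in TAZG197V. The ranges did not overlap, and it fell by 0.60 (log2, SE 0.137, adjusted p = 0.0094, edgeR), with adjusted p = 0.0504 without TAZG197V 2 (edgeR).

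None of the 5 two-pore-domain genes was called by edgeR, and 1 of the 5 had an unadjusted p under 0.05. Kcnk3 (TASK-1), the most abundant member per kb, was at 300, 254, 328 and 248 CPM in WT and at 263, 253, 237 and 225 CPM in TAZG197V. The ranges overlapped (log2 -0.22, SE 0.0825, adjusted p = 0.07, edgeR), and the adjusted p was 0.0366 with DESeq2. Kcnk6 (TWIK-2) and the stretch-activated Kcnk2 (TREK-1) both had a log2 fold change of -0.16, Kcnk13 of -0.25 and Kcnk5 of -0.37.

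Of the 7 auxiliary genes, 1 was called, which is 14.3% beside 33.5% over all genes tested. Kcnmb1, the beta subunit of the large-conductance channel in smooth muscle, was at 2.4, 3.44, 2.41 and 1.12 CPM in WT and at 1.24, 1.24, 1.55 and 1.32 CPM in TAZG197V. WT 4 was the lowest library of all, so the groups overlapped. Its log2 fold change was -0.60 (SE 0.207, adjusted p = 0.0496, edgeR), and the adjusted p stayed under 0.05 in 5 of 16 alternatives. Smooth muscle markers were split in direction: of 4, Myh11, Tagln and Cnn1 were called lower and Acta2 higher. The sum of all 4 was 124 to 256 CPM in WT and 218 to 412 CPM in TAZG197V. The part of these markers in the result was not tested. The other auxiliary members, Kcnab1 (-0.55), Kcnip3 (-0.27), Kcnab2 (-0.21), Kcnip2 (-0.17), Kcne4 (-0.03) and Kcne1 (0.30), were not called, with the log2 fold changes given.

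Among 26 other genes that act with potassium currents, 21 were tested, 3 were called higher and 4 lower, which is 33.3% of those tested beside 33.5% over all genes, and their median log2 fold change was -0.07. The pacemaker channel genes Hcn2 and Hcn4 were called in opposite directions. Hcn4, the main pacemaker channel of the sinus node, was at 16.3, 15.2, 10.8 and 13.6 CPM in WT and at 2.65, 2.4, 2.19 and 3.89 CPM in TAZG197V. It fell by 2.31 (log2, SE 0.141, adjusted p = 1.63e-05, edgeR) with no overlap. Hcn2, the form found in ventricle, was at 21.2, 15.0, 30.5 and 29.1 CPM in WT and at 43.7, 35.9, 39.7 and 38.9 CPM in TAZG197V, a 1.59-fold rise (log2 0.67, SE 0.103, adjusted p = 0.00157, edgeR).

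Atp1b1, the beta subunit gene of the sodium-potassium pump, was called higher (log2 0.40, adjusted p = 0.00379, edgeR), at 236 to 250 CPM in WT and 291 to 349 CPM in TAZG197V. The pump regulator Fxyd1 (log2 -0.23) was not called. Lrrc52 (-1.24) and Lrrc55 (0.62), gamma subunits of large-conductance channels, were not called either.

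Of the 18 called members, 10 kept an adjusted p under 0.05 in all 16 alternatives run on them. They included Kcnj2, Kcnj3, Kcnj4, Kcnj12, Kcnq1, Kcna7, Kcnv2 and Kcnn1, and in each of the 10 every TAZG197V library lay on 1 side of every WT library. That share was not computed over all called genes, so the 10 describe the members only. The lowest and highest log2 fold changes over these alternatives were -2.09 and -1.99 for Kcnj3, -1.25 and -1.09 for Kcnj12 and 3.29 and 3.85 for Kcnj4. They were wider for Kcnj2, at -1.52 and -0.96.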

How the data were processed

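RNA of heart pieces from 4 WT and 4 TAZG197V mice was measured as 50 bp single-end reads. By their processing notes and methods, the authors used bcl2fastq 2.20.0, FastQC 0.11.9, STAR 2.7.3a against mm10 with at most 2 mismatches, and featureCounts of Subread 2.0.0. The deposited values are raw counts per Ensembl gene over exons. Annotation release, strand setting and handling of multi-mapping reads are not given in the sources used here, and a read in exons of 2 genes may be lost or given to either. The 92 spike-in rows summed to 0 and were left out. Total counts were 23055689 to 36301031, so the spread between libraries sets the precision for all but low genes.

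Symbols and positions came from GENCODE M21 on GRCm38 (55230 IDs matched, 241 not) and promoter windows from RefSeq. In R 4.3.3, edgeR 4.0.16 was fitted to all 8 libraries after filterByExpr (15084 genes) and TMM scaling, with 2 surrogate variables from svaseq (sva 3.50.0, genotype protected, seed 1). Genotype was tested with the two-sided quasi-likelihood F-test and p-values were adjusted by Benjamini-Hochberg over these 15084 genes. CPM values are TMM-scaled, and the fitted log2 fold changes include the surrogate variables, so they can differ from ratios of mean CPM. Some genes counted among the members or partners are not reported here by name. Ratios of raw counts of partner genes were compared by exact permutation. The procedure was tested on simulated data, where it missed part of the changed genes, more of them at the smaller change, so a gene that was not called may still differ.

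Genes were named with values in every library if they were among 15 cardiac current genes or among the 3 called genes with the largest rise or fall in a group, and other called members with their log2 fold change. Values in every library for Kcna6, Kcna7, Kcng2, untested members and partner genes were added after their values were seen. The members, the 13 marker lists and the partner list were chosen with earlier results of these data known. Libraries of a genotype differed by more than sampling noise (chi-square statistic of at least 10.2 per gene), so all 8 were counted. The labels number libraries within a genotype, and p-values measure the spread between these libraries. Lane 7 held the libraries numbered 1 and 2, and lane 8 those numbered 3 and 4, in both genotypes. Alternatives were DESeq2 1.42.0, its size factors, 0 or 1 surrogate variable, lane or replicate number as covariate, other filters and cut-offs, and omission of each library or of both number 4 libraries.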

Additional observations from a re-analysis of the deposited data

Results flagged for a closer look

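In groups of 4, the distance from the highest or lowest library to its nearest neighbour was divided by the group's range, and a library was marked where this quotient passed Dixon's 95% critical value. Of 100 sets of 4 values, 21 were marked, and chance would mark about 5.

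Most of the marked libraries were those numbered 4. TAZG197V 4 was far above the other 3 TAZG197V libraries for Kcna1 (0.887), Kcna6 (0.904), Kcnab2 (0.874), Kcnj10 (0.961), Kcnma1 (0.985), Kcnq3 (0.992) and Kcnq5 (0.908). WT 4 was far above the other WT libraries for Kcnab2 (0.902), Kcnc1 (0.877), Kcnd2 (0.875), Kcnj10 (0.872), Kcnq3 (0.986) and Kcnq5 (0.957). The beta subunit gene Kcnab2 was at 9.91 CPM in WT 4 and 7.7 CPM in TAZG197V 4 against 1.73 to 2.59 CPM in the other 6 libraries. Neuron and glia markers were highest in the same 2 libraries, and their part in these values was not tested.

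Ratios within a library were marked in 3 cases. The log2 ratio of Kcnd3 to Kcnd2 was lowest in WT 4 (quotient 0.949), at -0.92 against 0.18 to 0.24 in the other WT libraries. The log2 ratio of Kcnj8 to Kcnj11 was also lowest in WT 4 (0.914), at -2.46 against -1.91 to -1.86. The log2 ratio of Kcnj12 to Kcnj2 was lowest in TAZG197V 1 (0.941), at -1.77 against -1.38 to -1.36.

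In the remaining cases Kcnj2 was highest in TAZG197V 1 (0.84), Kcne4 in TAZG197V 2 (0.833), Kcnab1 in WT 2 (0.856) and Kcnk13 in WT 1 (0.831), and Kcnd1 was lowest in WT 3 (0.939). For Kcnj2 the marked library was still below every WT library.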

How the results depend on the processing

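The count of members called lower was 14 and lay between 10 and 18 in all alternatives run, and the count called higher was 4. The latter was 2 without surrogate variables, 2 without TAZG197V 4 and 2 without both number 4 libraries. In both of these omissions Kcnq5 and Kcnc1 were not called, and without both number 4 libraries their mean counts were below the minimum while their adjusted p was under 0.05 (edgeR). The fit without surrogate variables also lost Kcnq5 and Kcnc1. When 1 library was left out, 2 to 6 members were called higher and 11 to 16 lower. Omission of WT 1 gave the 6, with Kcna5 (log2 0.54) and Kcne1 (log2 0.77) added. The adjusted p of Kcnmb1, Kcna1 and Kcna2 was under 0.05 in 5, 9 and 12 of 16 alternatives (edgeR or DESeq2). Without any low-count filter 18 members were called lower. Calls over all genes differed between fits too. They were 5060 of 15084 genes in the main fit, 4192 without surrogate variables, 4235 with lane and 4272 with the replicate block. Without a low-count filter they were 4965 of 31410 genes, and 3675 to 4816 genes when 1 library was left out. The member counts were not tested against these. Single omissions also took Kcna1 past 0.05 (WT 1, WT 2, TAZG197V 1 or TAZG197V 2) and Kcna2 (TAZG197V 2), and took Kcnj11 (0.0436 without WT 2), Kcnk3 (0.0486 without WT 2) and Kcnj8 (0.0271 without WT 4) under it (adjusted p, edgeR).

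Among the 9 uncalled members on which the alternatives were run, the direction turned for 2. The log2 fold change of Kcna5 was -0.06 without WT 4, -0.0 without TAZG197V 4 and -0.04 without both. That of Kcne1 was -0.29 without surrogate variables, -0.24 with 1 surrogate variable, -0.02 with lane, -0.0 with the replicate block, -0.31 without a low-count filter, -0.61 without WT 4, -0.46 without TAZG197V 4 and -0.41 without both number 4 libraries. The cause was not tested.

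Libraries with the same replicate number were not treated as paired, because the labels give no shared source and the correlation of their deviations from the genotype means did not pass 0.1 for every number. It was 0.332, 0.0736, 0.269 and 0.405 for numbers 1 to 4, against -0.445 to 0.334 between different numbers, and 5 of 8 libraries correlated best with their own number, a hint of pairing from the data. With the replicate number as a block 4 members were called higher and 12 lower, of which 4 and 10 were also called without it. The block lost Kcna1 (adjusted p = 0.117), Kcna2 (0.0631), Kcnmb1 (0.104) and Kcnt2 (0.0631) and added Kcnd3 (0.04) and Kcnh2 (0.0265), all by edgeR. Within lanes only 2 libraries a genotype remained, so lane was used as a covariate, which gave 3 called higher and 11 lower. When 1 library was left out, the difference of log2 ratios ranged from -2.29 to -1.99 for Kcnj3 to Kcnj5, 0.33 to 0.83 for Kcnd3 to Kcnd2, 0.19 to 0.58 for Kcnip2 to the Kv4 genes, 0.23 to 1.05 for Kcne1 to Kcnq1, -0.09 to 0.19 for Kcnj12 to Kcnj2 and -0.14 to 0.07 for Kcnj8 to Kcnj11. Members under about 2 CPM rest on few reads, and small changes in them were not detectable at this depth.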
